A study of Mus musculus with 4 samples.

Results

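The genes described here are 10 targets of the transcription factor p53: Cdkn1a, Mdm2, Ccng1, Bax, Bbc3, Trp53inp1, Gadd45a, Btg2, Phlda3 and Sesn1. They were found on the arrays as gene probes whose gene name in the scanner files was one of these symbols, which gave 13 of 39429 probes and 10 of 30222 distinct names. Cdkn1a had 3 probes, Trp53inp1 had 2 and each other gene had 1, and all 13 passed the filter on outlier spots, as did 39392 probes in all. Expression was read in liver RNA of male C57BL/6J mice that ate a high-fat diet (HFD), on 4 Agilent arrays in a single color: Cont and Drp1LiKO, each fasted and refed, with 1 array apiece. Drp1LiKO mice carried Drp1 flox/flox and the Alb-Cre transgene, whose albumin promoter drives Cre in hepatocytes, and the control mice (Cont) were Drp1 flox/flox littermates without Cre. Drp1 is the dynamin-related GTPase that divides mitochondria. Per the labels the HFD lasted 24 weeks, and per the methods it began at 4 weeks of age and drew 45% of its calories from fat. The refed mice had 4 h of food after a fast of 17 h per the series text or 16 h per the methods. The other 2 arrays carry no feeding state in their labels and share raw data with earlier submissions; they are called fasted here from the description of the experiment in the methods, and every value called fasted rests on that reading. How many mice each array stands for was not given in the sources used here, and the word liver below stands for the RNA of 1 array.

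p53 is a transcription factor that is held at a low level by the ubiquitin ligase Mdm2 and accumulates when DNA or the cell is under stress. It binds response elements near its targets and raises genes that stop the cell cycle (Cdkn1a, Gadd45a, Btg2), genes that promote apoptosis (Bax, Bbc3, Trp53inp1), genes that restrain growth signaling (Sesn1, Phlda3) and genes that feed back on p53 itself (Mdm2, Ccng1). Several of these genes also respond to other factors in liver, where fasting and stress hormones regulate Gadd45a and Cdkn1a, so their levels are no direct measure of p53 activity.

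With 1 array per condition there was no second liver to compare with, so no difference within a feeding state or genotype has a test. A level is the log2 ratio of a signal to the 75th percentile of the gene spots on its array, so a probe at that percentile has a level of 0. A difference was called at 2-fold or more, provided the scanner software had marked the brighter of both signals as well above background. The standard error (SE) beside a difference is the scanner's measurement error only, with a median of 0.208 over all probes, and leaves out the spread between mice. The 75th percentile lay between 357 and 722 and the share of gene spots well above background between 48.7% and 58.2%, and both were higher on the Drp1LiKO array of each pair. All arrays lay on 1 slide and were read in 1 scan. The probe of the targeted gene, Dnm1l, which encodes Drp1, lies at chr16:16312331-16312390 (mm9). Drp1LiKO minus Cont was -0.21 (SE 0.20) in the fasted pair and -0.12 (SE 0.20) in the refed pair. As the deleted exon is not named in the sources used here, this probe does not check the labels.

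The 3 Cdkn1a probes are shown because they gave very different signals and lie at different places of the gene, on the plus strand of chromosome 17 (mm9). Probe a lies at chr17:29237377-29237436, and the file names transcript variant 1 for it. Probe b, at chr17:29227986-29228045, was designed for transcript variant 2, and probe c, at chr17:29235299-29235358, for an Ensembl transcript. The files give no exon or UTR for them. The first 30 of 60 bases of each were as follows.
Cdkn1a probe a: ctaagggagctcacaggacactgagcaatg
Cdkn1a probe b: aatggagacagagaccccagataattaagg
Cdkn1a probe c: tggggtagtttccatagtgacccgggtcct

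The Trp53inp1 probes are both assigned to the same transcript and lie far apart on the plus strand of chromosome 4. Probe a is at chr4:11101174-11101233 and probe b at chr4:11092530-11092589 (mm9), and the first 30 bases of each are given for the same reason.
Trp53inp1 probe a: gtgtgtttatgggcacaatgttttctctca
Trp53inp1 probe b: aactcctgtcctggtctcagtgaggcgagt

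RefSeq promoter sequence (GRCm38.p6, from 250 bases before to 50 bases after each start) was found for 9 of the 10 genes. It was searched for the p53 consensus decamer, which reads the same on both strands. At least 1 decamer stood in the promoter of 6 of these 9 genes (66.7%), against 9.55% of 27025 genes, which describes genes already chosen as p53 targets. A pair of decamers no more than 13 bases apart was found in 24 of 32851 promoters (0.0731%), of which 1 belonged to a gene described here, Cdkn1a. This window belongs to the more upstream of 2 Cdkn1a entries, on the plus strand at chr17:29090729-29090978 (GRCm38.p6), and shows the 250 bases before the start with both decamers in capitals. They run from 73 to 42 bases before the start with a spacer of 12 bases.
Cdkn1a promoter: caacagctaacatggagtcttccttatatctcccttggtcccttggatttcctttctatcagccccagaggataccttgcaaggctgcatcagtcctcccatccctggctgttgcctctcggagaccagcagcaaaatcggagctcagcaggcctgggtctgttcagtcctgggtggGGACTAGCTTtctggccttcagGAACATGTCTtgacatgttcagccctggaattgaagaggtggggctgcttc

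The other 5 genes had a single decamer each, shown in capitals with 10 bases on either side and read in the direction of the gene. Gadd45a lies on the minus strand at chr6:67037428-67037457, Bax on the minus strand at chr7:45467080-45467109, Sesn1 on the plus strand at chr10:41887256-41887285, Mdm2 on the minus strand at chr10:117710925-117710954 and Ccng1 on the minus strand at chr11:40755452-40755481 (GRCm38.p6). A match is letters only and was not tested as a binding site.
Gadd45a promoter: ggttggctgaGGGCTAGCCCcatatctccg
Bax promoter: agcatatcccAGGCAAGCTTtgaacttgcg
Sesn1 promoter: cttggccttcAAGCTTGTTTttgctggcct
Mdm2 promoter: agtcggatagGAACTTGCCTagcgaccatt
Ccng1 promoter: agacctgcccGGGCAAGCCTtggcactgaa

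The first comparison asked how the 10 genes differed between Drp1LiKO and Cont liver after fasting. All 10 genes, read from 1 probe each, were above 0 in Drp1LiKO relative to Cont, with differences from 0.16 to 2.996 and a median of 1.25, while the median over 22957 probes well above background on at least 1 of the 2 arrays was -0.06. At 2-fold or more, 8 of the 13 probes and 5 of the 10 genes were higher, and none was lower. Among all 39392 probes 4.67% were called higher and 2.89% lower, and among those well above background on at least 1 of the 2 arrays, as all 13 were, 8.02% were higher and 4.96% lower. The genes called were Cdkn1a, Gadd45a, Btg2, Phlda3 and Trp53inp1. In bulk liver, fewer cells of a type and less RNA per cell cannot be told apart.

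Cdkn1a encodes p21, the inhibitor of cyclin-dependent kinases that carries much of the p53 arrest. Its probe a was printed 10 times on each array. The median signal of these spots was 215 in fasted Cont, 2714 in fasted Drp1LiKO, 66.4 in refed Cont and 374 in refed Drp1LiKO. The spots of each array did not overlap those of any other: they ranged from 200.1 to 266, from 2636 to 2822, from 62.7 to 81.2 and from 350 to 386 in the same order, with 9 spots left in fasted Cont after 1 was dropped as an outlier. On the scaled log2 level this was -1.08, 1.92, -2.38 and -0.50, so the fasted Drp1LiKO liver was the highest of the 4 and the refed Cont liver the lowest. Drp1LiKO exceeded Cont by 2.996 (SE 0.21), or 7.98-fold, in the fasted pair and by 1.88 (SE 0.25), or 3.69-fold, in the refed pair. Repeated spots share 1 RNA and are not replicates.

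**Figure D1:**
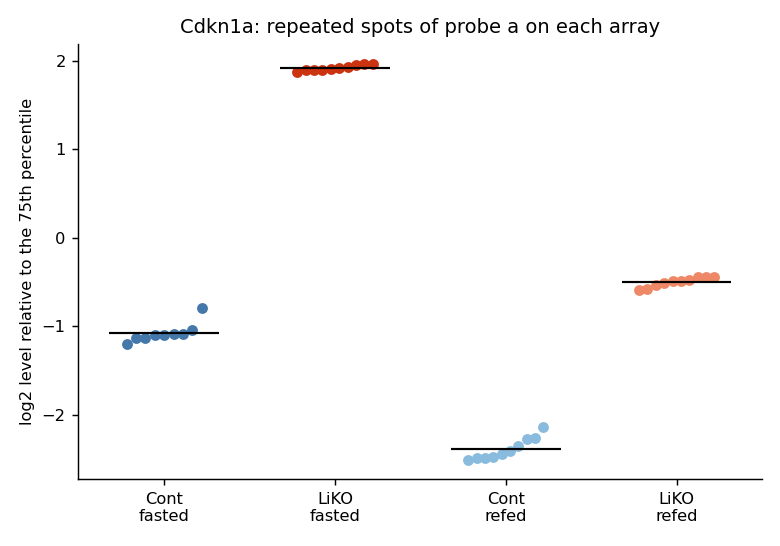
Points are the repeated spots of Cdkn1a probe a on each array, and black lines their mean, on the y axis as the log2 level relative to the 75th percentile of the array. The arrays follow each other as fasted Cont, fasted Drp1LiKO (LiKO), refed Cont and refed Drp1LiKO with means of -1.08, 1.92, -2.38 and -0.50, and no array's spots overlap another's.

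The other 2 Cdkn1a probes were well above background only in the fasted Drp1LiKO liver. Probe c gave a signal of 6.22 in fasted Cont, 68.9 in fasted Drp1LiKO, 6.42 in refed Cont and 4.73 in refed Drp1LiKO. Probe b gave 7.59, 33.4, 11.9 and 7.48. In the other 3 livers both probes thus give only an upper limit. The dim Cont signal was also read at a bound, the dimmest signal its array still measured well above background. At that bound probe c was 1.49-fold higher in fasted Drp1LiKO, and no fold can be given for probe b. With these 2 probes left out, 6 of 11 probes were called higher after fasting, where 2.95% of the probes well above background on both arrays were higher and 3.62% lower. Under normexp background correction the fasted difference of probe b turned to -0.08.

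Gadd45a, a stress-induced partner of the cell cycle and DNA repair machinery, had levels of -2.00 in fasted Cont, 0.64 in fasted Drp1LiKO, -0.10 in refed Cont and 0.87 in refed Drp1LiKO. The fasted Cont liver stood apart below the other 3. Its genotype difference was 2.64 (SE 0.22), or 6.24-fold, after fasting and 0.96 (SE 0.21), just under the 2-fold line, after refeeding. Btg2, an antiproliferative protein that recruits the machinery for shortening mRNA tails, was at -1.84, -0.06, -2.23 and -1.04 on the arrays in the same order. It was higher in Drp1LiKO by 1.78 (SE 0.22) fasted and 1.19 (SE 0.24) refed, and with normexp background correction the refed difference was 0.66 and no longer called.

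Phlda3, a pleckstrin homology domain protein that competes with Akt for membrane lipids, was at -0.91 in fasted Cont, 0.87 in fasted Drp1LiKO, -0.73 in refed Cont and -0.26 in refed Drp1LiKO. Only the fasted Drp1LiKO liver was above 0. The genotypes differed by 1.78 (SE 0.21) fasted and by 0.47 (SE 0.21) refed.

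Trp53inp1 encodes a nuclear protein that promotes p53-dependent apoptosis and autophagy. Probe a was at 1.88, 3.59, 0.82 and 1.45 and probe b at -0.98, 0.36, -1.87 and -1.32 in fasted Cont, fasted Drp1LiKO, refed Cont and refed Drp1LiKO. Both probes ordered the 4 livers alike, with fasted Drp1LiKO highest and refed Cont lowest. After fasting the genotype difference was 1.71 (SE 0.20) by probe a and 1.34 (SE 0.21) by probe b, and after refeeding it was 0.63 (SE 0.20) and 0.55 (SE 0.23).

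Of the apoptosis genes, Bbc3, which encodes the BH3-only protein Puma, was at 0.04, 0.84, -0.30 and 0.11 on the 4 arrays in that order. Its genotype difference was 0.80 (SE 0.20) fasted and 0.41 (SE 0.21) refed. Bax, whose product opens pores in the outer mitochondrial membrane, was at 1.97, 2.13, 2.24 and 2.37. All 4 livers lay within a narrow range, and the genotype difference of 0.16 (SE 0.20) fasted and 0.13 (SE 0.20) refed was smaller than its measurement error.

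The feedback genes differed by less than 2-fold in both states. Mdm2 was at 2.70 in fasted Cont, 3.05 in fasted Drp1LiKO, 2.30 in refed Cont and 2.89 in refed Drp1LiKO, a difference of 0.35 (SE 0.20) after fasting and 0.59 (SE 0.20) after refeeding. Ccng1, a cyclin that brings a phosphatase to Mdm2, was at 0.68, 1.18, -0.04 and 0.52. It differed by 0.50 (SE 0.20) fasted and 0.56 (SE 0.21) refed. Sesn1, a sestrin that restrains the growth kinase mTORC1 when amino acids are short, was at -0.19, 0.18, -0.33 and -0.21, with differences of 0.37 (SE 0.21) and 0.13 (SE 0.21).

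**Figure D2:**
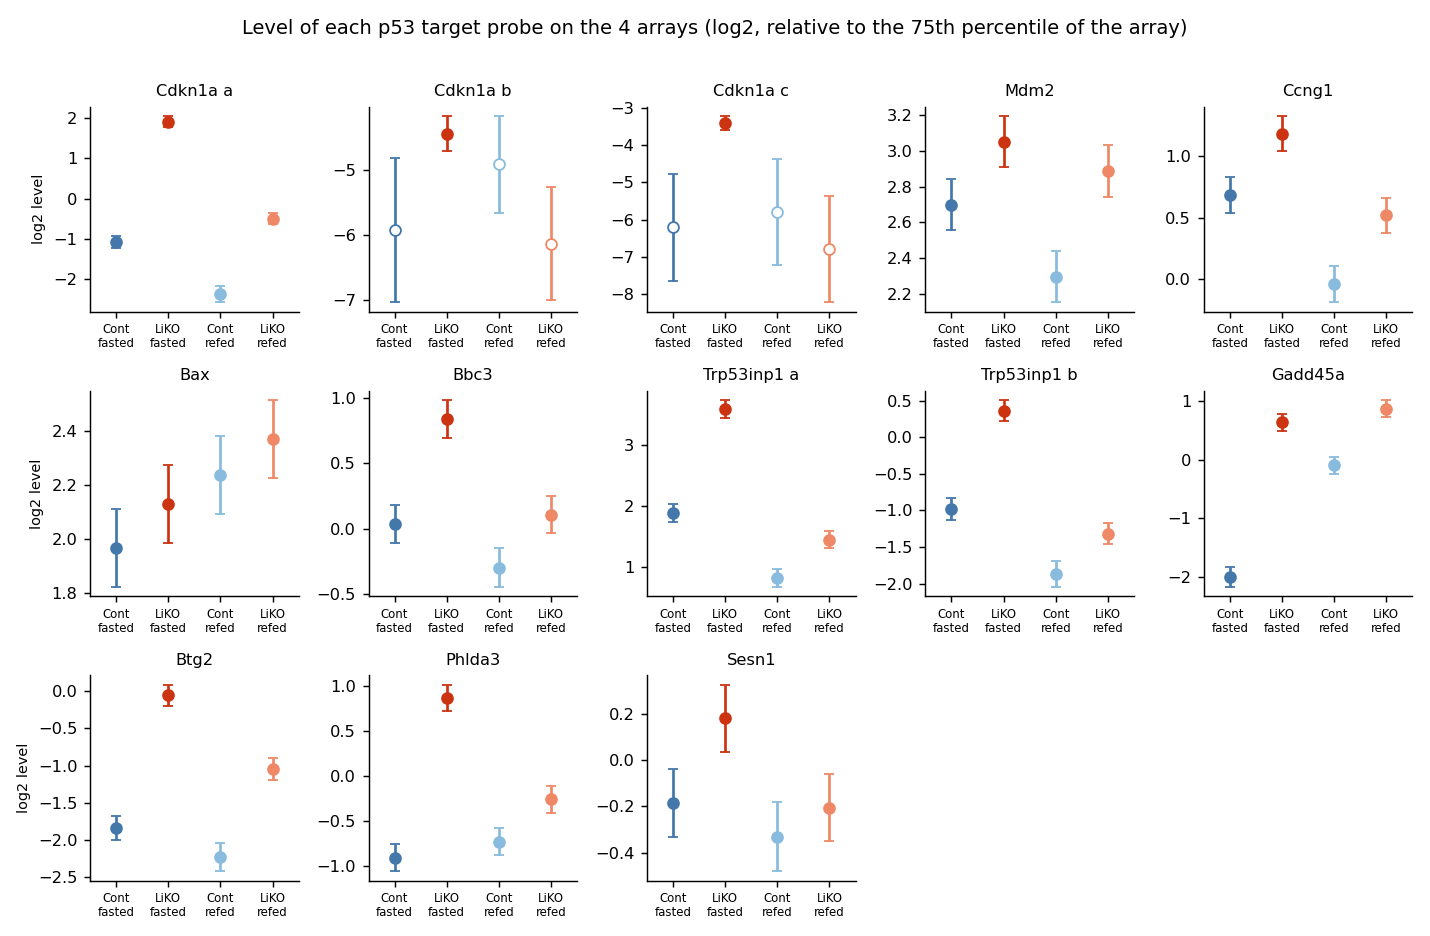
Each panel is 1 probe, with the log2 level relative to the 75th percentile of the array on the y axis and the 4 livers on the x axis. Bars are the measurement SE and open markers are signals not well above background. Fasted Drp1LiKO (LiKO) is the highest of the 4 for every gene except Gadd45a and Bax, and Bax stays between 1.97 and 2.37.

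After refeeding the same genotype comparison gave smaller values for most of the genes. All 10 genes were again above 0, with differences from 0.13 to 1.88 and a median of 0.57, beside a median of -0.03 over 22007 probes. Of the 13 probes 2 were called higher, those of Cdkn1a and Btg2, and none lower, where 4.53% of all probes were called higher and 3.43% lower, and 8.12% and 6.15% of those well above background on at least 1 array of the pair, as 11 of the 13 were. Both called probes were among the 11 well above background on both arrays, where 3.11% of all such probes were higher and 4.34% lower.

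The change of the genotype difference from fasting to refeeding was -1.68 (SE 0.30) for Gadd45a, -1.31 (SE 0.30) for Phlda3, -1.11 (SE 0.33) for Cdkn1a probe a and -1.08 (SE 0.29) for Trp53inp1 probe a. For Btg2 it was -0.59 (SE 0.32) and for Bbc3 -0.40 (SE 0.29). At the other end, Ccng1 moved by 0.06 (SE 0.29) and Mdm2 by 0.24 (SE 0.29). With 1 array per condition this change was not tested.

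**Figure D3:**
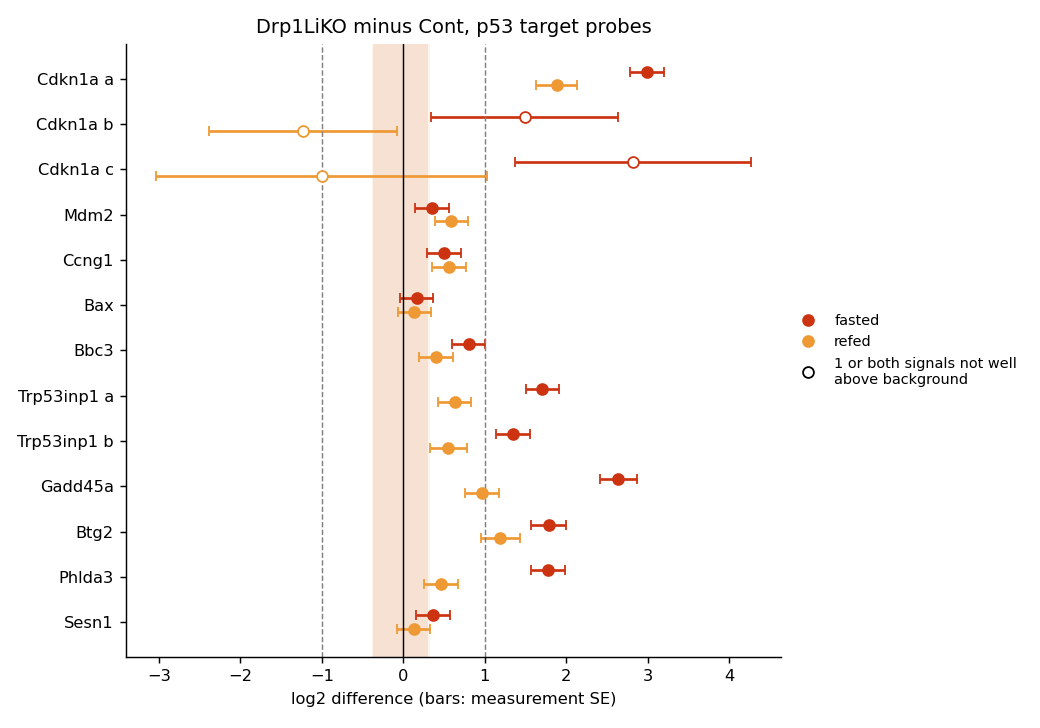
The x axis is the log2 difference of Drp1LiKO minus Cont for each probe on the y axis, after fasting and after refeeding, with the measurement SE as bars. Shaded bands hold the middle 50% of all probes, dashed lines mark 2-fold, and open markers have at least 1 signal not well above background. Gadd45a is at 2.64 fasted and 0.96 refed and Cdkn1a a at 2.996 and 1.88, while Ccng1 is at 0.50 and 0.56.

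The second question was how refeeding changed these genes in each genotype. In Cont, 1 of the 13 probes was called higher after refeeding and 2 lower, where 2.27% of all probes were higher and 3.13% lower, and 4.34% and 5.97% of those well above background on at least 1 array of the pair, as 11 of the 13 were. Gadd45a was higher by 1.91 (SE 0.23), Cdkn1a probe a was lower by -1.31 (SE 0.25) and Trp53inp1 probe a was lower by -1.07 (SE 0.20). Trp53inp1 probe b, at -0.89 (SE 0.23), and Ccng1, at -0.72 (SE 0.21), lay nearer to the 2-fold line than the remaining genes, which lay between -0.40 and 0.27. Under normexp background correction the Cdkn1a difference was -0.70 and its call was lost. The median over the 10 genes was -0.36, beside 0.08 over 20635 probes.

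In Drp1LiKO, 6 of the 13 probes were lower after refeeding and none was higher, where 4.46% of all probes were called lower and 3.15% higher, and 7.52% and 5.31% of those well above background on at least 1 array of the pair, as all 13 were. Without Cdkn1a probes b and c, whose refed signals were not well above background, 4 of 11 probes were lower, where 3.72% of the probes well above background on both arrays were lower and 3.07% higher. The 6 probes were all of Cdkn1a, both of Trp53inp1 and that of Phlda3, and the median over the 10 genes was -0.70 beside 0.05 over 23328 probes. Cdkn1a probe a was lower by -2.42 (SE 0.20), or 5.35-fold, and Trp53inp1 by -2.14 (SE 0.20) on probe a and -1.68 (SE 0.21) on probe b. Phlda3 differed by -1.13 (SE 0.21) in Drp1LiKO and by 0.18 (SE 0.21) in Cont. Gadd45a differed by 0.23 (SE 0.20) here against 1.91 in Cont, so the gene that was highest above its fasted level in refed Cont was close to its fasted level in refed Drp1LiKO. Btg2, at -0.98 (SE 0.21), lay just inside the 2-fold line. With the refed signal at its bound, the dim Cdkn1a probe c was 2.23-fold lower after refeeding and probe b 1.08-fold. On the log2 scale the value of probe b is -0.11, smaller than the measurement SE of 0.27 of its fasted Drp1LiKO signal.

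**Figure D4:**
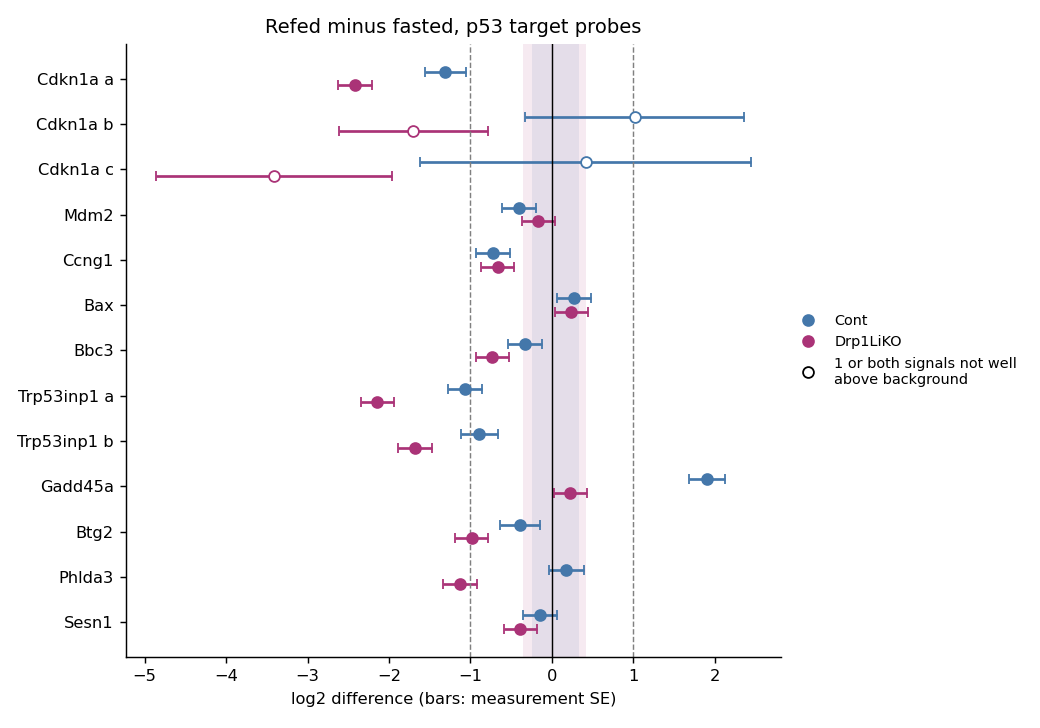
The x axis is the log2 difference of refed minus fasted liver for each probe on the y axis, in Cont and in Drp1LiKO, with the measurement SE as bars, shaded bands for the middle 50% of all probes and dashed lines at 2-fold. Open markers have at least 1 signal not well above background. Gadd45a is at 1.91 in Cont and 0.23 in Drp1LiKO, and Phlda3 at 0.18 and -1.13.

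The 4 comparisons share arrays: each array enters 1 genotype comparison and 1 refeeding comparison, so a single unusual liver moves both. Testing was possible only through a limma model in which genotype and feeding add up, which leaves 1 residual degree of freedom and counts any interaction as error. It called 0 of 21221 probes (0.0%) for genotype at a Benjamini-Hochberg adjusted p under 0.05, with 5891 at an unadjusted p under 0.05, and 0 (0.0%) for refeeding, with 5440. Of the 11 member probes in the fit, 9 had an unadjusted p under 0.05 for genotype and 6 for refeeding. In limma with the tested factor alone in the model 4 and 0 did, beside 2885 and 2144 of the 21221 probes. The genotype effect of Cdkn1a in limma was 2.44 (SE 0.33, adjusted p = 0.103), higher on 2 of 2 Drp1LiKO arrays, and that of Btg2 was 1.49 (SE 0.21, adjusted p = 0.103), also higher on 2 of 2. Among the 18004 probes well above background on all 4 arrays, limma called 3.34% higher and 5.13% lower for genotype, and the adjusted p was 0.0295 for Cdkn1a and 0.0323 for Btg2. With an intensity trend in limma and all 21221 probes kept, they were 0.0382 and 0.0423. In limma after quantile normalization both were 0.135, and in limma with genotype alone in the model they were 0.364 and 0.301.

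Other genes of the p53 network, from lists chosen with earlier results of these data known, were read from 1 probe per gene. Counts are given for genes well above background on both arrays of a pair, among which 2.95% of all probes were called higher and 3.62% lower fasted, and 3.11% and 4.34% refed. Of 28 other p53 targets, 20 could be read so in the fasted pair, of which 3 were called higher (Gdf15, Plk2 and Tnfrsf10b) and 1 lower (Pidd1), with a median of 0.36. In the refed pair 16 could be read, none was called and the median was 0.02. A further 5 refed calls higher and 1 lower rested on a pair with 1 dim signal. At the bound 1 of each stayed at 2-fold or more, Pmaip1 higher and Rrm2b lower. Tnfrsf10b, a death receptor of the TRAIL ligand, had a higher signal in Drp1LiKO in both states. It was at -3.63 in fasted Cont, -2.12 in fasted Drp1LiKO, -5.76 in refed Cont and -3.33 in refed Drp1LiKO, a difference of 1.51 (SE 0.33) after fasting. After refeeding the Cont signal was not well above background, and with it at its bound the difference was 0.21. Plk3, a stress-responsive polo-like kinase, differed after refeeding by -2.40 (SE 0.20) in Cont and -1.49 (SE 0.20) in Drp1LiKO. Among the 21 other targets readable on both Drp1LiKO arrays, 5 were called lower after refeeding and none higher. Of all probes read so, 3.72% were lower and 3.07% higher. Among these 21 genes 14 were below 0 and 7 above, with a median of -0.56, while the median of 16 in Cont was -0.12.

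p53 itself and both named regulators differed by genotype by less than 2-fold. Trp53 was at -3.00, -2.78, -2.94 and -2.69 on the arrays of fasted Cont, fasted Drp1LiKO, refed Cont and refed Drp1LiKO, differing by 0.22 (SE 0.27) after fasting and 0.25 (SE 0.30) after refeeding. Mdm4, a partner of Mdm2 that blocks p53 activity, differed by -0.17 (SE 0.22) and 0.59 (SE 0.27), while its other probe was at 0.45 and 0.77. The phosphatase gene Ppm1d differed by 0.59 (SE 0.28) and -0.07 (SE 0.28). Of the 11 genes of this list that could be read, none was called in the fasted pair, and 2 were lower and none higher in the refed pair, Atm and Trp63. The 2 Atm probes disagreed, at -2.69 and 0.05. Cdkn2a, the gene of the p16 and p19Arf proteins, had a Cont signal not well above background in both pairs. Its difference was 1.06 (SE 0.36) fasted, and 1.28 refed with the Cont signal at its bound.

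The relatives of the 10 genes showed no shared direction by genotype. Of 15 relatives well above background on both arrays, 1 was called higher and 1 lower in each pair, 9 were above 0 fasted and 5 refed, and the medians were 0.27 and -0.28. Btg3, an antiproliferative relative of Btg2, was higher in Drp1LiKO by 1.87 (SE 0.21) and 2.25 (SE 0.21). The cyclin-dependent kinase inhibitors Cdkn1b and Cdkn1c, relatives of Cdkn1a, differed by 0.32 (SE 0.20) and 0.27 (SE 0.21) after fasting and by 0.05 (SE 0.20) and -0.19 (SE 0.23) after refeeding. The other Cdkn1b probe was at 0.33 fasted and -0.71 refed. Next to Gadd45a, Gadd45b differed by 0.34 (SE 0.21) and -0.41 (SE 0.22) and Gadd45g by 0.50 (SE 0.20) and 0.79 (SE 0.20). Gadd45g was lower after refeeding in both genotypes, by -2.05 (SE 0.20) in Cont and -1.76 (SE 0.20) in Drp1LiKO, the opposite sign to Gadd45a in Cont. Phlda1 was lower likewise, by -2.45 (SE 0.20) and -1.12 (SE 0.20), and by genotype differed by -1.15 (SE 0.20) fasted and 0.18 (SE 0.20) refed. Refeeding left 8 of 15 relatives below 0 in Cont and 12 of 15 in Drp1LiKO. Their medians were -0.11 and -0.64, beside 0.10 and 0.08 over all probes well above background on both arrays.

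Sesn2 and Sesn3, relatives of Sesn1, differed by genotype by 0.44 (SE 0.20) and 0.52 (SE 0.23) after fasting and by -0.35 (SE 0.21) and 0.18 (SE 0.25) after refeeding. Trp53inp2, which acts in autophagy, was lower in Drp1LiKO by -0.58 (SE 0.20) and -1.32 (SE 0.20), against the higher values of Trp53inp1. Fasted and refed genotype differences were 0.23 and -0.32 for Btg1, -0.29 and -0.80 for Tob1, -0.05 and -0.52 for Tob2 and -0.73 and -0.45 for Gadd45gip1. Other probes differed from these: that of Btg1 was at -0.002 and -1.35, and that of Gadd45gip1 at 0.26 and 0.04. The pore-forming relatives of Bax, Bak1 and Bok, were at -0.29 and 0.48 fasted and at -0.04 and -0.28 refed. Ccng2, the relative of Ccng1, differed by 0.61 (SE 0.40) fasted, where the Cont signal was not well above background. Neither of its refed signals was well above background. Phlda2 was well above background only in refed Drp1LiKO, and Btg4 on no array. Among 12 Bcl2 family genes well above background on both fasted arrays, none was called higher and 1 lower, and the median was -0.08. Among 11 in the refed pair the counts were the same and the median was -0.28. Pmaip1, a BH3-only gene also listed among the other p53 targets, is left out of that refed count because its Cont signal was dim. Its genotype difference was 0.78 (SE 0.27) fasted and 1.64 (SE 0.37) refed, or 1.61 refed with the Cont signal at its bound.

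Among other growth arrest genes, again those well above background on both arrays, 2 of 10 were called higher in the fasted pair (Cdkn2c and Igfbp3) and 1 of 9 in the refed pair, none lower, and the medians were 0.12 and -0.10. The Cdk4 and Cdk6 inhibitor Cdkn2c was higher by 1.33 (SE 0.25) and 1.34 (SE 0.31). Of the proliferation genes, 4 of 10 were called higher fasted (Ccnd1, Cdc20, Cdk1 and Mcm2) and 4 of 8 refed (Aurka, Ccnd1, Mcm2 and Mcm5), none lower, and all were above 0, with medians of 0.93 and 1.04. The Cdk1 call rested on 1 of 3 probes, and its probes ranged from -0.80 to 1.25. Ccnd1, cyclin D1, was higher by 1.98 (SE 0.20) and 1.27 (SE 0.20), and Mcm2, a subunit of the replicative helicase, by 1.17 (SE 0.30) and 1.64 (SE 0.28). In the integrated stress response, the pathway by which the factor Atf4 answers amino acid and mitochondrial stress, 4 of 10 genes, all well above background, were called higher fasted and 5 refed, none lower, and the list medians were 0.80 and 1.24. Ddit3, its stress factor Chop, was higher by 2.09 (SE 0.20) and 3.60 (SE 0.21), and Asns, Atf3 and Trib3 were called higher in both states as well.

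**Figure D5:**
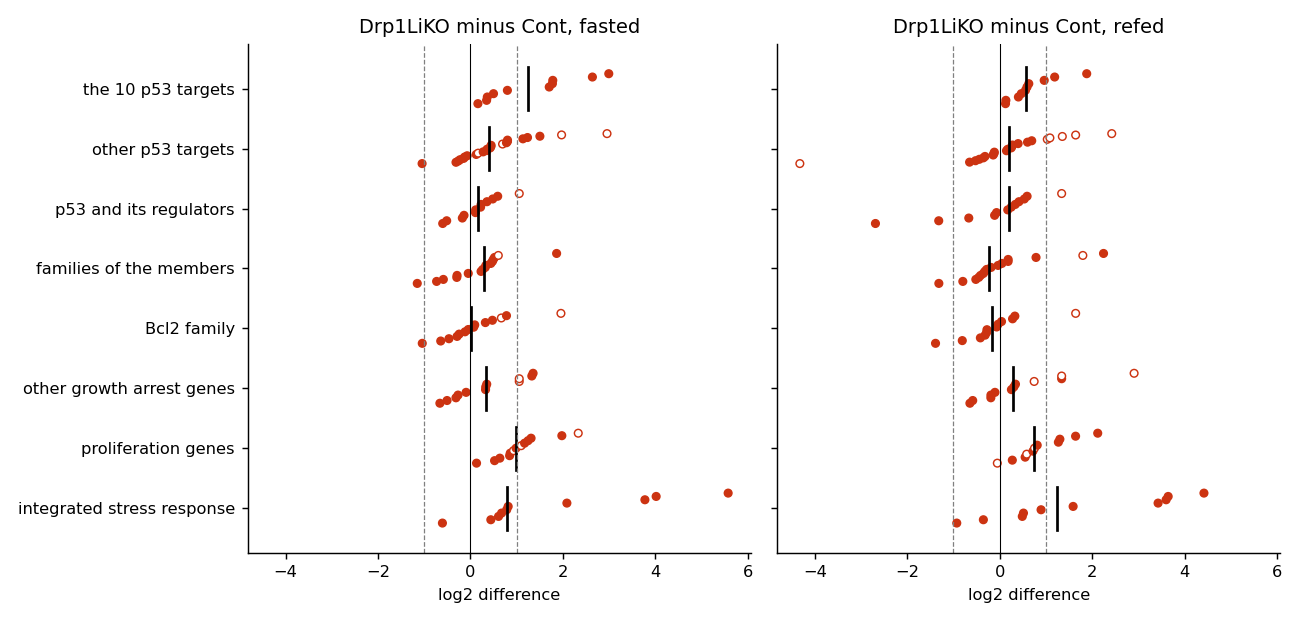
Each point is 1 gene and the x axis is its log2 difference of Drp1LiKO minus Cont, after fasting on the left and after refeeding on the right. Rows are the gene lists, black lines are list medians, open points have 1 signal not well above background, and dashed lines mark 2-fold. Medians here include the open points and after fasting are 1.25 for the 10 p53 targets, 0.40 for the other p53 targets and 0.99 for the proliferation genes.

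The genes whose 4 levels followed Cdkn1a probe a most closely, among 18004 probes well above background on all arrays and after centering each probe on its own mean, were Chka, Ugt1a10, Ehhadh, Arntl and Cib3, with root mean square differences of 0.329, 0.403, 0.580, 0.586 and 0.587 on the log2 scale. Chka, choline kinase alpha, differed by genotype by 2.60 after fasting and 1.33 after refeeding. Over 4 arrays many probes can follow any one pattern, so this is a description.

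Markers of the cell types in liver moved with genotype too. The summed signal of 10 hepatocyte markers, relative to the 75th percentile, was 2874 in fasted Cont, 1989 in fasted Drp1LiKO, 3393 in refed Cont and 2372 in refed Drp1LiKO, and all 10 were well above background on every array. That of 9 macrophage markers, all well above background, was 96.1, 112, 107.3 and 188. That of 6 cholangiocyte markers was 0.841, 1.78, 0.825 and 1.89, with Epcam well above background on no array. The hepatocyte sum was lower, and the macrophage and cholangiocyte sums higher, on the Drp1LiKO array of each pair. By gene, 8 of the 10 hepatocyte markers were below 0 in both pairs, while Tat (1.04 fasted) and Cps1 (1.24 refed) were called higher. Of the macrophage markers 6 of 9 were above 0 fasted and 9 of 9 refed, with Csf1r at -0.35, Clec4f at -0.16 and Timd4 at -0.42 in the fasted pair. Stellate cell and fibroblast markers summed to 47.2, 68.8, 53.4 and 60.7, with all 8 well above background and Col1a1, Col1a2 and Col3a1 called higher in fasted Drp1LiKO. For 7 endothelial markers the sums were 54.5, 45.9, 57.6 and 39.1. For 7 T and NK cell markers they were 5.13, 4.29, 6.17 and 4.99 (Cd8a and Klrb1c well above background on none). For 8 neutrophil markers they were 94.5, 67.6, 57.4 and 60.0, with Ngp well above background on none and Mpo only in refed Drp1LiKO. Of 6 neutrophil markers well above background on both fasted arrays, Retnlg, S100a8 and S100a9 were called lower in Drp1LiKO, and the median was -0.75. In the refed pair S100a9 was called higher. The part of these cell types in the differences of the p53 targets was not tested.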

How the data were processed

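Liver RNA was measured on 4 one-color Agilent 4x44K v2 arrays, 1 per group. The authors deposited scanner output, from which the processed signal was taken as a linear intensity. Background was subtracted within each array by Feature Extraction 10.7.1.1 (per the file headers), while the submitters' processing notes name version 9.5.1.1. The methods name another array design and RNA kit than the labels, and the files carry the design of the labels. Spots flagged as outliers were left out (37 probes lost), log2 signals were set relative to the 75th percentile of each array, and repeated spots were averaged. A probe counted as well above background unless more of its spots failed than passed. Measurement errors come from the scanner's error model. Probe positions are mm9. RefSeq accessions (26755 of 27315 matched) served to update names, which changed none of the 13 probes.

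A difference was called at 2-fold with the brighter signal well above background. limma (lmFit and eBayes, two-sided) was fitted to probes well above background on at least 2 arrays, as an additive model with Benjamini-Hochberg adjustment at 0.05, and was checked on simulated data. A dim signal was read at its bound, the higher of itself and the dimmest signal its array still measured well above background. Some dim signals exceeded that dimmest signal, so a difference at the bound is not a strict minimum. Genes with several probes were read from the probe detected on most arrays, or the brightest of those that tied.

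The genes and lists were chosen with earlier results of these data known. All member probes are given; named from the lists are Trp53, Mdm4, Ppm1d, relatives of the 10 genes and, up to 6 per list, genes called the same way in both states or genotypes. Other genes named beside a small count, and single markers, were chosen after their values were seen. For likeness to Cdkn1a the 5 nearest named genes were taken. Alternatives were median scaling, quantile normalization, the authors' normalized values, normexp background correction (offset 50), other filters on dim probes, a 1.5-fold threshold, 1 probe per gene, and other limma models. R 4.3.3 ran limma 3.58.1. All else ran in Python 3.11.15, using matplotlib 3.10.9 for figures, scipy 1.17.1, pandas 2.3.3 and numpy 2.4.6. The values of 1 marker list are not reported here.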

Additional observations from a re-analysis of the deposited data

How the results depend on the processing

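No paired analysis was possible because each group has 1 array, and for the same reason no array could be left out. Of the 52 differences of the 13 member probes, 52 stayed within their measurement error under median scaling and under the authors' values and 50 under quantile normalization. Under normexp background correction 37 did, 14 moved and 1 reversed, the fasted genotype difference of Cdkn1a probe b, to -0.0782. The number of member probes called higher in the refed genotype comparison was 1 under normexp and 5 at 1.5-fold, which 8.45% of all probes passed, and the number lower was 2 with no filter on dim probes. For refeeding in Cont, 2 were higher with no filter, and the number lower was 1 under normexp and 4 at 1.5-fold, which 6.42% of all probes passed. With 1 probe per gene, 5 were higher by genotype after fasting and 3 lower after refeeding in Drp1LiKO. For the additive genotype effect limma called 2 member probes with an intensity trend, and 2 among probes well above background on all 4 arrays. Over all probes limma called 714 for genotype with the trend, 1524 among probes well above background on all 4 arrays and 1 with genotype alone in the model, and for refeeding it called 15 in that filtered set. Normexp also turned the balance of all calls: the share of higher calls was 61.8% and became 37.66% for genotype after fasting, 56.9% and 33.52% after refeeding, 42.08% and 60.09% for refeeding in Cont, and 41.38% and 56.26% in Drp1LiKO. The cause was not tested. Quantile normalization shifted the median genotype difference of all probes after fasting by 0.10. Signal over background limits Cdkn1a probes b and c, Tnfrsf10b, Cdkn2a and Pmaip1.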
